A study of Mus musculus with 14 samples.

Results

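Mouse cell lines obtained from primordial germ cells kept in hypoxia were set against primordial germ cells taken directly from the embryo. The arrays were chosen by their titles, 2 of line hiEGL1, 2 of line hiEGL2 and 2 of germ cells at 11.5 days post coitum (PGC11.5), which is 6 of the 14 arrays of the series. The labels describe the hiEGL lines as hypoxia-induced cells that resemble embryonic germ cells and the PGC11.5 samples as unipotent germ cells without hypoxic culture. All groups carry the C57BL background, and no genotype, transgene, sex, number of pooled embryos or oxygen level is given in the sources used here. Both hiEGL lines carry equal weight in every hiEGL value, each line is 1 line, and nothing in the labels places its arrays in separate cultures. The p-values therefore measure only the spread between arrays of a group, pooled over all 14 arrays, which may be technical. The wider spread between the PGC11.5 arrays, given below, is not measured on its own. Embryonic germ (EG) cells grown without hypoxia, with 2 arrays, serve as a reference beside the named genes, together with arrays titled ESCm and ESCf (ESC, 4 arrays), taken here as embryonic stem cells from that title, and epiblast stem cells (EpiSC, 2 arrays). A characteristic of the ESC arrays names embryonic germ cells instead, so that the ESC reference levels and the dividing probes defined below rest on the title. The hiEGL lines are cultured and the PGC11.5 cells are not, so hypoxia, time in culture and change of cell state cannot be told apart.

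Primordial germ cells are the embryonic founders of eggs and sperm. They keep part of the pluripotency network, such as Oct4 (gene Pou5f1), Nanog and Dppa3, erase most of their DNA methylation, and on reaching the gonad switch on germline genes such as Dazl and Ddx4. In culture they can turn into embryonic germ cells, which self-renew and are pluripotent. In low oxygen the hydroxylases that mark hypoxia-inducible factor (HIF) for destruction are inactive, and stabilised HIF raises genes of glycolysis, blood vessel growth and matrix modification through the core motif ACGTG or GCGTG.

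Intensities are background-corrected, quantile-normalised and on the log2 scale, a gene counts as detected on an array when its detection p is under 0.01, and a gene is called when limma's adjusted p is under 0.05. Between 29.8% and 34.2% of the 25697 probes were detected on the 6 arrays, and the small number of arrays limits every value. EG and hiEGL arrays lacked signal for many probes that the other arrays detected. Of 1548 probes detected on all 6 ESC and EpiSC arrays and on neither EG array, 854 were also detected on both PGC11.5 arrays and on no hiEGL array. That divide runs between the groups compared here, so that for genes on such probes it cannot be told apart from a difference between the cells. The 820 genes tested on a dividing probe, as counted from EG, ESC and EpiSC alone, are identified below where they are named, with the EG level beside them. Where some but not all arrays of a group detected a gene, the undetected arrays were raised to the lowest signal of a detected probe, and the fold is given as "at least".

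The PGC11.5 arrays also differed from each other. They lay at least 2-fold apart for 1236 of the 9054 genes tested, against 0 genes between both hiEGL1 arrays and 17 between both hiEGL2 arrays. All 4 measured globin genes were higher on PGC11.5 array 1, and embryonic beta-like globin Hbb-y stood at 4.60 and 4.32 in hiEGL1, 4.36 and 4.43 in hiEGL2 and 14.37 and 10.09 in PGC11.5. Fibroblast markers followed the same side, with 15 of 30 at least 2-fold higher on array 1 and 0 on array 2, and their mean level was 6.66 on array 1 and 5.51 on array 2. Immediate-early genes were at least 2-fold higher on array 1 for 8 of 15 members and on array 2 for 0. Of 24 later germline genes 5 were at least 2-fold higher on array 2 and 1 on array 1. Of 15 early germ cell genes 3 were higher by that margin on array 2 and 0 on array 1. Over all 9054 genes the counts were 671 on array 2 and 565 on array 1. The part of red blood cells and somatic cells in the PGC11.5 values was not tested. In these bulk samples, fewer cells of a type and less RNA per cell cannot be told apart. Germline markers Dazl, Dppa3, Nanos3, Dnd1 and Ddx4 were detected on both PGC11.5 arrays, whereas Kit, the receptor gene often used to identify these cells, has no probe listed.

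**Figure D1:**
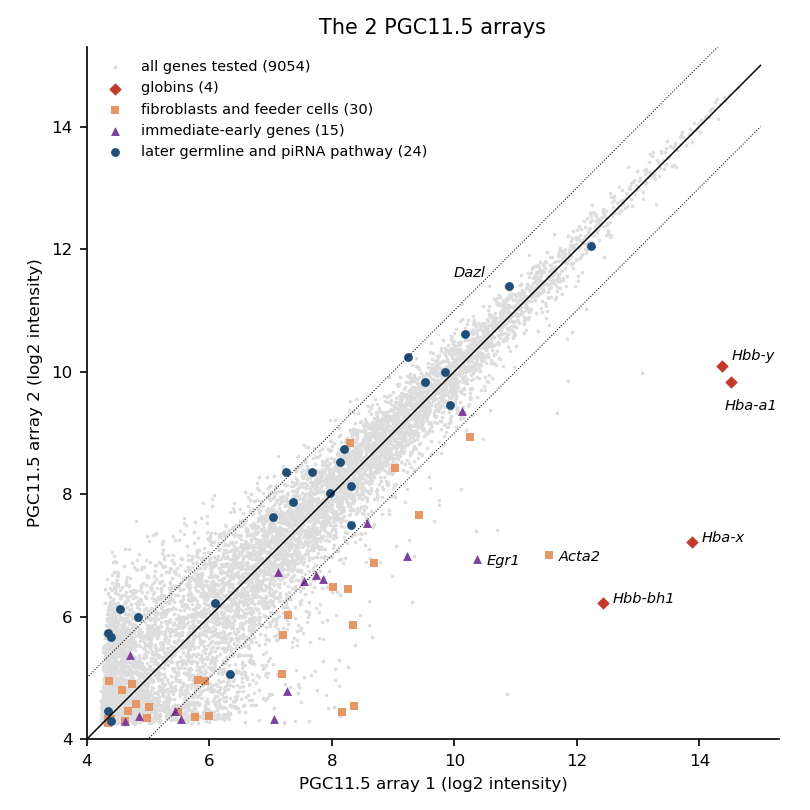
Log2 intensity on PGC11.5 array 1 against array 2 for the 9054 genes tested, with 4 gene lists in colour, equality as a solid line and 2-fold differences as dotted lines. All 4 globin genes lie far below the line, on the side of array 1, while Dazl and most later germline genes lie near it. Of 24 later germline genes, 5 are at least 2-fold higher on array 2 and 1 on array 1.

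The hypoxia-derived lines differed from PGC11.5 in most genes tested. Of 9054 genes, 6985 were called (77.1%), 4082 higher in hiEGL (45.1%) and 2903 lower (32.1%), with a median log2 difference of 0.22. Without the quantile step the split turned, to 2456 higher and 4015 lower, and the median of all genes moved by 0.62 to -0.40, so directions below are relative to that choice. Set against PGC11.5 separately, line hiEGL1 had 6748 calls (74.5%), with 43.9% of genes higher and 30.6% lower. Line hiEGL2 had 6736 (74.4%), with 42.8% higher and 31.6% lower. These comparisons share the PGC11.5 arrays. In 6392 called genes (70.6% of those tested) the 4 hiEGL arrays did not overlap the PGC11.5 arrays.

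Of 12404 single probes 9518 were called (76.7%), and genes with several probes give a check inside the array. Of 2370 such genes, 882 (37.2%) had all tested probes called in 1 direction, 363 higher and 519 lower, and 627 (26.5%) had probes called in opposite directions. In 778 of the concordant genes, 313 higher and 465 lower, no hiEGL array overlapped a PGC11.5 array on any probe. The other 6684 genes tested rest on 1 probe.

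**Figure D2:**
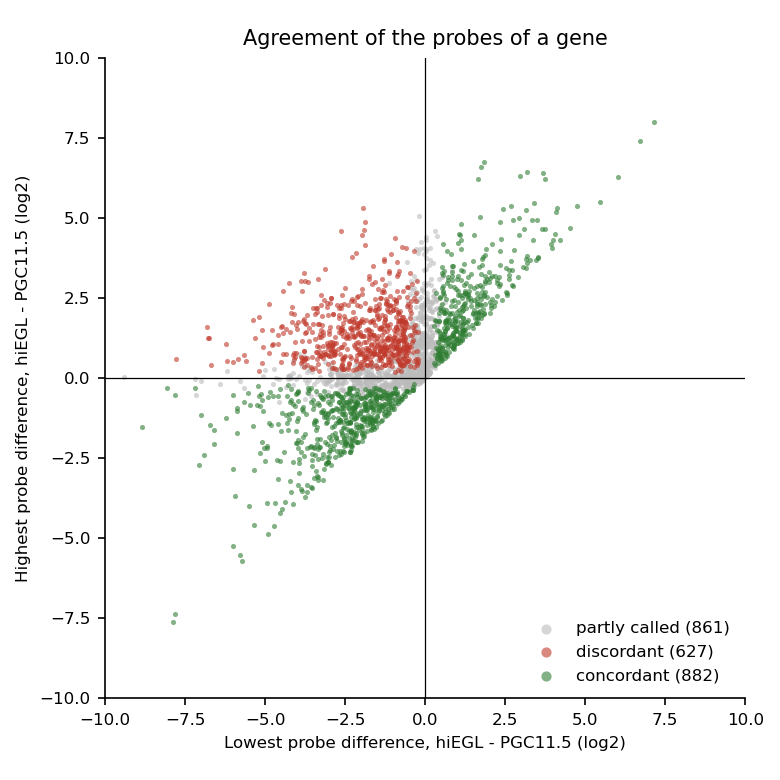
Lowest against highest log2 difference, hiEGL minus PGC11.5, among the tested probes of each of the 2370 genes with several. Concordant genes (882) lie in the lower left and upper right and discordant genes (627) in the upper left, where one probe is lower and another higher.

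The largest concordant rises were led by Col6a1. Col6a1, a chain of the matrix collagen VI, had log2 intensities of 12.21 and 12.24 in hiEGL1, 12.21 and 12.20 in hiEGL2 and 5.76 and 4.36 in PGC11.5, and both of its probes differed by 7.15 and 8.01. Every hiEGL array lay more than 6 units above both germ cell arrays, neither of which detected the gene, and it was at least 82.2-fold higher in hiEGL (adjusted p = 5.01e-09). Timp1, an inhibitor of matrix metalloproteases, stood at 12.31 and 12.35 in hiEGL1, 12.17 and 12.14 in hiEGL2 and 6.88 and 6.59 in PGC11.5 and was 45.5-fold higher. Medag, a gene linked to fat cell development and read from a dividing probe (EG 5.89), was at least 67.4-fold higher. Further members of the 12 largest were Ndrg1, Mbnl2, a splicing regulator (at least 31.6-fold higher, detected on 1 of 2 PGC11.5 arrays), the tetraspan-family gene Lhfp (at least 11.6-fold higher), the semaphorin guidance genes Sema5a (at least 10.7-fold higher) and Sema3f (17.3-fold higher), and the matrix gene Fbln2 (36.7-fold higher, with 21.8-fold against PGC11.5 array 1 alone and 61.7-fold against array 2). The pentraxin gene Ptx3 (at least 8.25-fold higher), the class I light chain gene B2m (at least 14.6-fold higher, detected on 1 of 2 PGC11.5 arrays, with 9.32-fold against PGC11.5 array 1 alone and 22.9-fold against array 2) and the growth factor gene Fgf10 (at least 6.38-fold higher) completed them. Of these 12 genes, 11 were also called higher in hiEGL than in EG, where 61.8% of genes were called and 28.4% called higher. Both comparisons use the same hiEGL arrays, and the 12 were picked for their rise on them. The overlap is therefore no separate support, and the shares over all genes are no fair reference for it. Sema3f (EG 6.49) and Col6a1 (EG 7.28) were among those with low EG levels, whereas Timp1 was at 10.58 in EG.

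The largest concordant falls held Pou5f1 and the globin gene Hbb-y, and otherwise mostly housekeeping genes that EG arrays also lacked. Snrpd1, a core protein of splicing particles, stood at 4.33 and 4.42 in hiEGL1, 4.48 and 4.82 in hiEGL2 and 12.31 and 12.45 in PGC11.5, at 4.51 in EG and at 11.63 in ESC. Sumo3, Eef2, Ube2e3, Emd, Ap2a1 and Sec61b had the same form, low in hiEGL and undetected in EG, and all 7 were read from dividing probes. For these genes the array divide and the cells cannot be told apart. Of the 12 falls, 9 were undetected on both EG arrays. Against EG only 3 were called lower and 1 higher, beside 33.4% and 28.4% of all genes tested. The exceptions read from other probes were Pou5f1, Hbb-y, Rnf182, Ivns1abp and Rsl24d1. Rnf182, a ubiquitin ligase gene, stood at 5.06 and 4.86 in hiEGL1, 4.84 and 5.55 in hiEGL2 and 8.99 and 9.05 in PGC11.5 and near background in EG (4.83), ESC (4.51) and EpiSC (4.51). Of these groups PGC11.5 alone stood well above background, and the gene was at least 8.43-fold lower in hiEGL. Ivns1abp, an actin-binding protein gene, was at least 21.6-fold lower and stood at 7.86 in EG.

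Germline genes were lower in the hypoxia-derived lines than in PGC11.5. Of the later germline and piRNA list, 14 of 24 tested members were lower and 5 higher, with a median log2 difference of -0.82, and of the early germ cell list 9 of 15 were lower and 5 higher, with a median of -0.92. Both shares of lower genes stood above the 32.1% over all genes. The 3 largest falls of the later list were Dazl, Tex19.1 and Asz1, none on a dividing probe.

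Dazl, an RNA-binding protein gene that licenses germ cells for sexual development, stood at 4.54 and 4.40 in hiEGL1, 4.62 and 4.71 in hiEGL2 and 10.89 and 11.40 in PGC11.5. No hiEGL array detected it and both germ cell arrays did, so that it was at least 36.9-fold lower in hiEGL (log2 difference -6.58 ± 0.18, SE, n = 4 and 2, adjusted p = 3.31e-10 by limma). EG cells, on the same side of the array divide, detected it at 6.85. Ddx4, the Vasa RNA helicase gene, stood at 5.71 and 5.02 in hiEGL1, 5.86 and 5.39 in hiEGL2 and 7.37 and 7.88 in PGC11.5 and was at least 3.21-fold lower, with all its tested probes lower. The promoters of both genes are printed because these genes, whose hiEGL arrays all lay below detection, hold the motif TCGCGC, which was searched for its CpG pairs, the bases that DNA methylation marks. Capitals mark TCGCGC on either strand, in RefSeq windows of build GRCm38.p6 from 250 bases before to 50 after the gene start, written along the gene's strand. Dazl lies at chr17:50293571-50293870 and Ddx4 at chr13:112652261-112652560, both on the minus strand, and hold 28 and 38 CpG pairs against a median of 7 over the 32851 windows.
Dazl: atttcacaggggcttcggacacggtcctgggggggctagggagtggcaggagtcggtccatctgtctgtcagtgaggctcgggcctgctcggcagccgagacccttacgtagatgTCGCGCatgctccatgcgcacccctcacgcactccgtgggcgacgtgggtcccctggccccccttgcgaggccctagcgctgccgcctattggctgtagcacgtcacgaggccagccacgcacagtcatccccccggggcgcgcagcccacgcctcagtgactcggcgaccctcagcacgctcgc
Ddx4: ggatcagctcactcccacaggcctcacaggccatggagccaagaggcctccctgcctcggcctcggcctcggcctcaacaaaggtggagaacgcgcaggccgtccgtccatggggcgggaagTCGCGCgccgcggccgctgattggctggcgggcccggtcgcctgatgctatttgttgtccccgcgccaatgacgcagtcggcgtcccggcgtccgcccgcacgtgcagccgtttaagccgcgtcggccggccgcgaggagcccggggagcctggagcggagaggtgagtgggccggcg
Among the 12 lower members of the later list with a window, 4 held TCGCGC (33.3%), against 0 of 5 higher members and 10.3% of all genes with a window. A match is a run of letters and no evidence of binding. The E-box CACGTG was found in 5 of the 12 lower and 2 of the 5 higher members, against 8.09% of all genes with a window.

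Tex19.1, a mammalian germline gene that restrains retrotransposons, stood at 6.80 and 6.73 in hiEGL1, 4.80 and 4.87 in hiEGL2 and 12.23 and 12.05 in PGC11.5. It was detected on the hiEGL1 arrays and not on those of hiEGL2, and was at least 53.3-fold lower over both lines (adjusted p = 2.96e-12). Asz1, a partner of the piRNA machinery, stood at 4.82 and 5.33 in hiEGL1, 4.53 and 4.50 in hiEGL2 and 9.92 and 9.46 in PGC11.5, with hiEGL at the background level of EG (5.04), ESC (4.99) and EpiSC (4.88). It was at least 13.5-fold lower. The piRNA pathway silences transposons in the germline through small RNAs loaded onto PIWI proteins.

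Dppa3, or Stella, a maternal-effect gene that protects against demethylation of imprints, stood at 6.85 and 6.64 in hiEGL1, 7.74 and 7.81 in hiEGL2 and 12.54 and 12.91 in PGC11.5. It was detected on all 6 arrays and 44.1-fold lower in hiEGL (log2 difference -5.46 ± 0.12, SE, adjusted p = 9.4e-11). EG cells did not detect it (4.94), and hiEGL was at least 2.71-fold higher than EG (adjusted p = 1e-07). Nanos3, needed for germ cell survival, stood at 6.66 and 6.56 in hiEGL1, 4.57 and 4.62 in hiEGL2 and 8.40 and 8.04 in PGC11.5. It was detected in hiEGL1 and PGC11.5 but on neither hiEGL2 array, and was at least 3.73-fold lower over both lines. Elavl2, an RNA-binding protein gene, was 7.19-fold lower with all probes lower, and Dnd1, a guard of germ cell messages, stood at 9.79 and 9.9998 in hiEGL1, 9.77 and 9.65 in hiEGL2 and 11.71 and 11.97 in PGC11.5 and was 4.10-fold lower. Dnd1 nevertheless remained 5.71-fold higher in hiEGL than in EG (7.29).

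Several germline genes were as high or higher in the lines. Rec8, a meiotic cohesin subunit, stood at 8.77 and 8.68 in hiEGL1, 8.17 and 8.26 in hiEGL2 and 4.39 and 5.67 in PGC11.5, all hiEGL arrays above both PGC11.5 arrays, of which 1 detected it, and was at least 6.06-fold higher. EG was at 8.46. Tdrd7, a Tudor protein gene of germ granules, stood at 8.42 and 8.38 in hiEGL1, 9.04 and 9.03 in hiEGL2 and 7.25 and 8.36 in PGC11.5, where array 2 of PGC11.5 reached the hiEGL1 level and array 1 did not. The call of Tdrd7 was lost without PGC11.5 array 1 (log2 difference 0.36, adjusted p = 0.079), so it rests on that array. Ifitm1, a surface protein gene of early germ cells, was 4.31-fold higher. Nanos2, a gene of male germ cells, was at least 1.03-fold higher, detected on 3 of 4 hiEGL arrays and on no PGC11.5 array, and its sign turned without the quantile step (-0.29). Taf7l and Sox17 were called higher at levels near background (5.08 to 5.86 and 5.24 to 6.24 in hiEGL) and also turned without that step. Stra8, the gene that starts meiosis, was undetected in both groups, and Prdm14, a germ cell specification factor, was detected on 1 PGC11.5 array and no hiEGL array (log2 difference -0.94 ± 0.13).

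Tfap2c, a transcription factor required in germ cells, shows how a direction can hang on the probe. Its brightest probe had log2 intensities of 13.46 and 13.35 in hiEGL1, 13.10 and 13.08 in hiEGL2 and 11.34 and 11.37 in PGC11.5, higher in hiEGL by 1.89 ± 0.06. Its other probes differed by -2.70 and -0.79, and the mean of its probes differed by -0.53. No direction can be given for Tfap2c. The Rhox genes, X-linked homeobox genes of reproductive tissues, were tested in 5 members. Rhox9 stood at 13.28 and 13.20 in hiEGL1, 13.08 and 13.13 in hiEGL2 and 12.79 and 12.83 in PGC11.5 and Rhox6 at 10.92 and 11.09 in hiEGL1, 10.39 and 10.29 in hiEGL2 and 10.22 and 10.08 in PGC11.5, against 7.09 and 5.69 in EG. Of 5 tested Rhox members 3 were called higher and none lower, with small differences of 0.36 ± 0.08 for Rhox9 and 0.52 ± 0.15 for Rhox6, both lost once the line was a random block (adjusted p = 0.493 and 0.391). Rhox9 and Rhox12 (0.87 ± 0.24, on a dividing probe with EG at 5.94) turned without the quantile step, and with the line as a block no member was called.

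**Figure D3:**
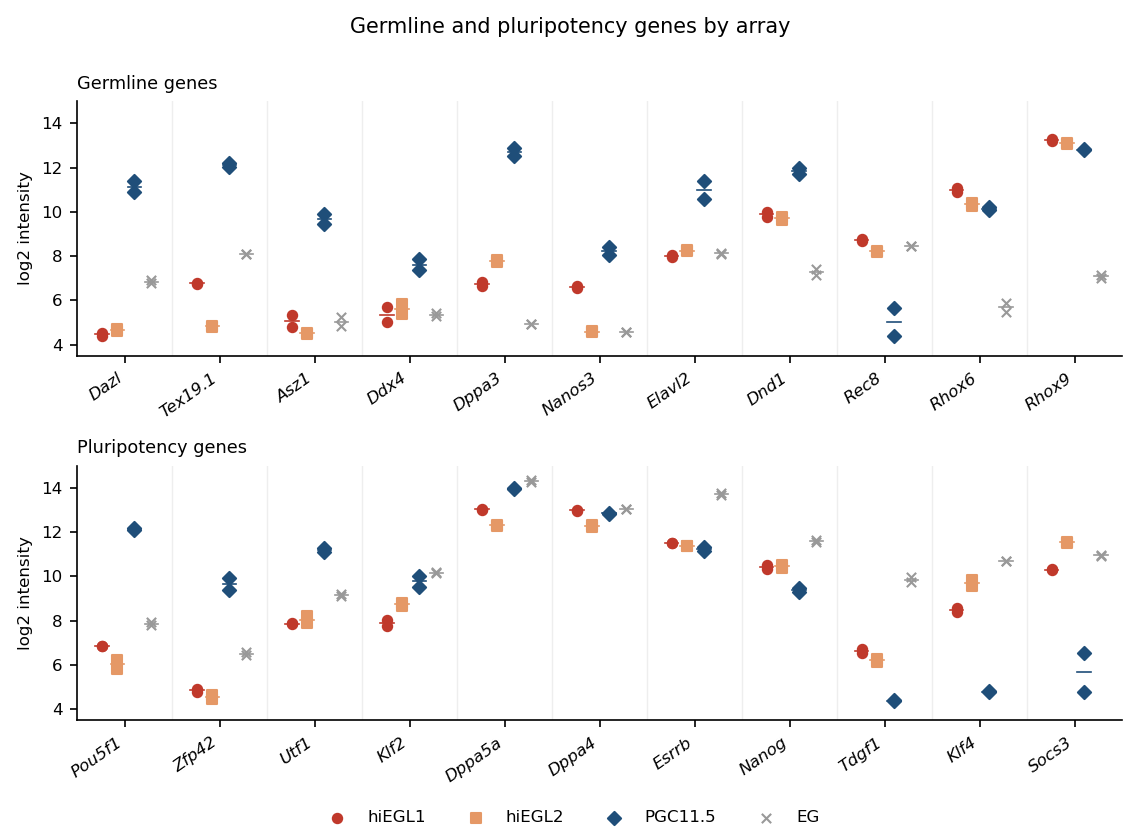
Log2 intensity of 11 germline genes (top) and 11 pluripotency genes (bottom) on each array of hiEGL1, hiEGL2, PGC11.5 and EG, with group means as short lines. Dazl, Tex19.1, Asz1, Dppa3, Pou5f1, Zfp42 and Utf1 are lower on every hiEGL array than on both PGC11.5 arrays, while Nanog, Tdgf1, Klf4 and Socs3 are higher.

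The pluripotency lists gave no stable direction. Of the core list 5 of 17 tested members were higher and 6 lower, with a median of 0.04, and of the naive list 8 of 19 were higher and 7 lower, with a median of 0.14. The core list stood at 29.4% higher and 35.3% lower and the naive list at 42.1% higher and 36.8% lower, beside 45.1% and 32.1% over all genes. With the mean of the probes the core list had 2 higher and 11 lower members (median -0.79) and the naive list 7 and 10, and without the quantile step they had 3 and 9 and 6 and 9. Without PGC11.5 array 1 the naive list had 8 higher and 9 lower, and without array 2 the core list 7 and 6. The lines are labelled as resembling embryonic germ cells, and Pou5f1 read low in both on these arrays.

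Pou5f1, which encodes the central pluripotency factor Oct4, stood at 6.85 and 6.83 in hiEGL1, 5.84 and 6.24 in hiEGL2 and 12.19 and 12.11 in PGC11.5. Its second probe gave the same difference, and the gene was at least 50.4-fold lower in hiEGL (log2 difference -5.71 ± 0.11, SE, n = 4 and 2, adjusted p = 4.02e-11). Of the hiEGL arrays 3 of 4 detected it on the brighter probe, EG stood at 7.87, and ESC and EpiSC at 12.47 and 12.48. The brighter probe is not a dividing probe, but the EG level lies on the hiEGL side. Zfp42, or Rex1, a marker of naive cells, stood at 4.79 and 4.90 in hiEGL1, 4.47 and 4.66 in hiEGL2 and 9.91 and 9.37 in PGC11.5 and was at least 12.99-fold lower, with EG at 6.50. Utf1, a chromatin factor of undifferentiated cells, stood at 7.84 and 7.89 in hiEGL1, 7.90 and 8.19 in hiEGL2 and 11.10 and 11.27 in PGC11.5 and was 9.36-fold lower. Chd1, an open-chromatin remodeller, was at least 2.02-fold lower, on a dividing probe (EG 4.76). Klf2, a naive factor, was 2.76-fold lower.

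Other members of the network were at or above the germ cell level. Nanog stood at 10.53 and 10.34 in hiEGL1, 10.53 and 10.38 in hiEGL2 and 9.29 and 9.49 in PGC11.5, and every hiEGL array exceeded both germ cell arrays, so that Nanog was 2.07-fold higher (adjusted p = 6.66e-07). Nanog has 1 tested probe. Klf4, a naive transcription factor, stood at 8.41 and 8.56 in hiEGL1, 9.85 and 9.58 in hiEGL2 and 4.82 and 4.77 in PGC11.5 and was at least 9.49-fold higher on the 1 of its 3 probes that gave signal in hiEGL. Socs3, the feedback inhibitor and target of LIF signalling, stood at 10.30 and 10.32 in hiEGL1, 11.57 and 11.50 in hiEGL2 and 6.54 and 4.78 in PGC11.5 and was at least 28.5-fold higher, with 1 of 2 PGC11.5 arrays detecting it. The Nodal co-receptor gene Tdgf1 was at least 1.47-fold higher, and its call was lost without the quantile step (0.29, adjusted p = 0.353). Its other probe did not differ beyond error (-0.15, adjusted p = 0.36).

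Among the other members, some hardly moved and some differed in size between their probes. Esrrb, an orphan receptor of naive cells, stood at 11.52 and 11.53 in hiEGL1, 11.37 and 11.38 in hiEGL2 and 11.31 and 11.17 in PGC11.5, a difference of 0.21 ± 0.07 that was lost once the line was a random block (adjusted p = 0.399) and without PGC11.5 array 2 (0.14, adjusted p = 0.109). Dppa4, a chromatin protein gene, stood at 12.98 and 12.98 in hiEGL1, 12.34 and 12.23 in hiEGL2 and 12.84 and 12.88 in PGC11.5 on its brightest probe, with a difference of -0.23 ± 0.05, lost with the line as a block (adjusted p = 0.423). Another Dppa4 probe, detected on all 6 arrays, differed by -1.82, and a dim one by -0.33 without a call. Dppa5a was 2.45-fold lower on its brighter probe, and its other probe, detected on all 6 arrays, differed by -4.27. Sox2, the partner of Oct4, was near background on its brighter probe at 5.89 and 5.55 in hiEGL1, 5.68 and 6.13 in hiEGL2 and 5.29 and 6.30 in PGC11.5 (difference 0.01 ± 0.25, adjusted p = 0.963). Its other probe differed by -4.67, so no direction can be given for Sox2. Primed epiblast genes had 6 of 20 higher and 4 lower (30% higher and 20% lower, beside 45.1% and 32.1% over all genes). Lefty2, a Nodal antagonist, stood at 4.51 and 4.65 in hiEGL1, 4.51 and 4.55 in hiEGL2 and 9.998 and 10.50 in PGC11.5 and was at least 19.8-fold lower, its paralog Lefty1 was 4.13-fold lower, and Otx2, a neural and epiblast factor, was at least 1.20-fold lower, with 1 of 2 PGC11.5 arrays above detection. The primed majority turned without the quantile step (5 higher, 14 lower), with the line as a block (2 and 4) and without PGC11.5 array 1 (6 and 7).

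Targets of HIF were higher in the lines kept in hypoxia. Of 35 tested HIF targets outside glycolysis, 24 were higher and 8 lower, with a median log2 difference of 1.61 beside 0.22 over all genes, 68.6% higher against 45.1%. Without the quantile step the count was 14 higher and 11 lower. Neither line carries this alone, with 22 higher and 8 lower in hiEGL1 and 23 and 5 in hiEGL2, which share the PGC11.5 arrays. Fibroblast markers, 26 of 30 higher, moved with this list, Lox stands on both, and their part in it was not tested.

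Ndrg1, a stress-response gene raised by HIF, stood at 10.36 and 10.38 in hiEGL1, 10.95 and 11.01 in hiEGL2 and 4.32 and 4.45 in PGC11.5. Its probes differed by 6.01 and 6.29, no PGC11.5 array detected it, and it was at least 28.2-fold higher (adjusted p = 3.55e-12). Vegfa, the growth factor of blood vessels, stood at 10.52 and 10.61 in hiEGL1, 11.41 and 11.43 in hiEGL2 and 5.48 and 6.03 in PGC11.5 and was at least 30.8-fold higher, with both probes higher and 1 of 2 PGC11.5 arrays above detection. Lox, which cross-links collagen, stood at 9.996 and 9.91 in hiEGL1, 11.96 and 11.91 in hiEGL2 and 5.99 and 4.37 in PGC11.5 and was at least 34.0-fold higher. Each of these genes was higher on every hiEGL array than on both germ cell arrays. EG levels, without hypoxia, were between those groups at 8.23, 9.01 and 9.69.

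Car9, a carbonic anhydrase gene widely used as a reporter of HIF activity, stood at 8.96 and 8.84 in hiEGL1, 10.19 and 10.24 in hiEGL2 and 4.31 and 4.64 in PGC11.5, at 5.15 in EG and at 4.55 in ESC. It was at least 13.01-fold higher than in PGC11.5 and at least 13.3-fold higher than in EG. P4ha1, a collagen prolyl hydroxylase gene, stood at 8.59 and 8.65 in hiEGL1, 8.83 and 8.87 in hiEGL2 and 4.31 and 4.52 in PGC11.5, undetected in PGC11.5 and EG (4.70), and was at least 7.37-fold higher. Egln3, an oxygen-sensing hydroxylase that is itself a HIF target, stood at 10.45 and 10.25 in hiEGL1, 9.83 and 9.85 in hiEGL2 and 7.11 and 7.32 in PGC11.5 and was 7.36-fold higher. Promoters of these 3 genes are shown because all 3 rose and carry the HIF core motif ACGTG, in capitals on either strand. They come from the same RefSeq windows, Car9 at chr4:43506776-43507075 and P4ha1 at chr10:59323046-59323345 on the plus strand and Egln3 at chr12:54203825-54204124 on the minus strand.
Car9: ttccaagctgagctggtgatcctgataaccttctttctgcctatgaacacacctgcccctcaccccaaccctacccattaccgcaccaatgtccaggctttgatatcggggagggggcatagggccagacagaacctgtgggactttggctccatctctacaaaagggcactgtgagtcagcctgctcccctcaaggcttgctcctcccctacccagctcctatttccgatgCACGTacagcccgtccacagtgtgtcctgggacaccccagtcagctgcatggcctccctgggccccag
P4ha1: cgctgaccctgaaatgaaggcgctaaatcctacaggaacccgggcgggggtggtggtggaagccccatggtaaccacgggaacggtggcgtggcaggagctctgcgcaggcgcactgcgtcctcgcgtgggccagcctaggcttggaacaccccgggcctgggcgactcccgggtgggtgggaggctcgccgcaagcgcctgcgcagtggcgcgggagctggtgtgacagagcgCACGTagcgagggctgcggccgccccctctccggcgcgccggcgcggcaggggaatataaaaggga
Egln3: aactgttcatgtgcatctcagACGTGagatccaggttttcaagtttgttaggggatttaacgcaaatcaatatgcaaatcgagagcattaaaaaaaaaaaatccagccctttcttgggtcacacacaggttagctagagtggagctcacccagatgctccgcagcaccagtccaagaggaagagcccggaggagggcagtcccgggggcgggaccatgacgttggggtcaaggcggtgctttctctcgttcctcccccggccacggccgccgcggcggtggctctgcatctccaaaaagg
The motif starts 18 bases before the gene start in Car9, 16 before it in P4ha1 and 229 before it in Egln3. Of 14 higher HIF targets with a window, 10 held ACGTG (71.4%) and 11 GCGTG (78.6%), and of 8 lower targets 4 (50%) and 7 (87.5%). The shares over all genes with a window were 21.8% and 35.2%. A window without the motif says only that these letters are not in it. The motif ACGTG also lies inside the E-box CACGTG.

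The HIF targets that were lower did not share 1 form. Igfbp3, a binding protein of insulin-like growth factors, stood at 4.81 and 4.57 in hiEGL1, 5.41 and 5.44 in hiEGL2 and 7.74 and 7.36 in PGC11.5 on a dividing probe (EG 4.68) and was at least 3.05-fold lower. Car12, a second membrane carbonic anhydrase gene, was at least 1.35-fold lower, and Trib3, a pseudokinase gene of amino acid stress, was at least 1.16-fold lower on a dividing probe (EG 4.43). Of 12 tested HIF subunits and regulators 2 were higher and 7 lower (16.7% higher and 58.3% lower, beside 45.1% and 32.1%), with a median of -0.62. Without dividing probes 2 were higher and 4 lower (median -0.12), and with the mean of the probes 3 and 5 (median 0.02). Hif1a, the oxygen-regulated subunit, stood at 4.43 and 4.36 in hiEGL1, 4.29 and 4.56 in hiEGL2 and 6.41 and 6.96 in PGC11.5 and was at least 1.68-fold lower on a dividing probe, with EG at 4.45 beside ESC at 6.61. Arnt, its partner, and the coactivator Ep300 were at least 1.21-fold lower and at least 14.0-fold lower, also on dividing probes (EG 5.19 and 5.52). For those 3 genes the array divide cannot be told apart from the cells. Vhl, which targets HIF for degradation, was at least 3.12-fold higher, Epas1 (HIF2A) was undetected in both groups and turned without the quantile step, and Egln1 was undetected on all 6 arrays (difference -0.97 ± 0.25, lost with the line as a block, adjusted p = 0.103).

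**Figure D4:**
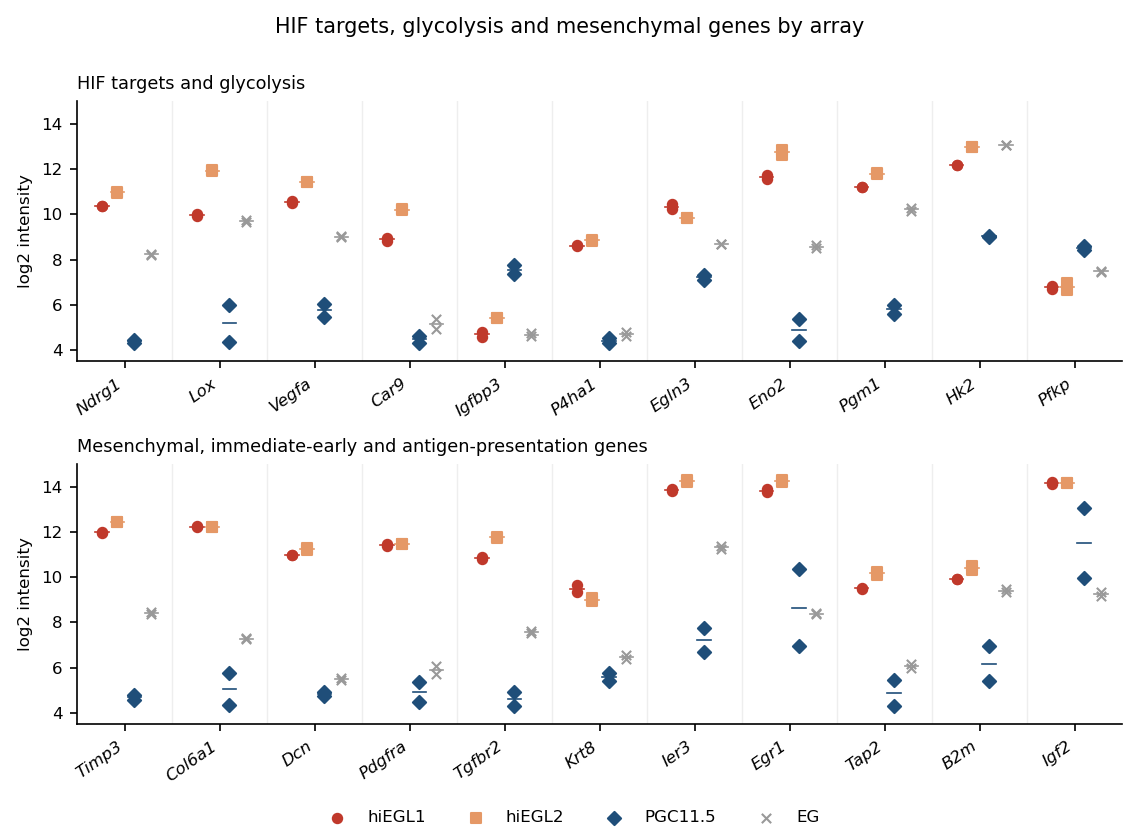
Log2 intensity of 11 HIF targets and glycolysis genes (top) and 11 mesenchymal, immediate-early, antigen-presentation and growth genes (bottom) on each array of hiEGL1, hiEGL2, PGC11.5 and EG, with group means as short lines. Igfbp3 and Pfkp are the genes lower on every hiEGL array than on both PGC11.5 arrays, and EG lies below every hiEGL array for most of the others, with Hk2 an exception.

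Glycolysis genes were higher, and respiratory chain genes lower, more often than all genes. Of 22 glycolysis enzymes and sugar transporters 14 were higher and 7 lower, with a median log2 difference of 1.03. These are 63.6% higher and 31.8% lower, beside 45.1% and 32.1% over all genes, so the share of lower members was near that of all genes. Of 60 respiratory chain and ATP synthase genes 12 were higher and 41 lower (68.3% against 32.1% over all genes), with a median of -0.80. Eno2, an enolase gene, stood at 11.74 and 11.57 in hiEGL1, 12.64 and 12.83 in hiEGL2 and 5.36 and 4.41 in PGC11.5 and was at least 81.2-fold higher (adjusted p = 7.27e-10). The sugar phosphate mutase gene Pgm1 stood at 11.21 and 11.21 in hiEGL1, 11.81 and 11.79 in hiEGL2 and 5.61 and 5.98 in PGC11.5 and was at least 44.7-fold higher, with 1 of 2 PGC11.5 arrays above detection. Hexokinase gene Hk2, which commits glucose to the cell, stood at 12.20 and 12.16 in hiEGL1, 12.98 and 12.98 in hiEGL2 and 9.02 and 9.02 in PGC11.5 and was 11.8-fold higher, although EG was as high at 13.08. Ldha, which makes lactate, was 4.26-fold higher, and the glucose transporter gene Slc2a1 was 4.27-fold higher. Pdk1, which blocks entry of pyruvate into the mitochondrion, differed by 0.58 ± 0.08 and lost its call with the line as a block (adjusted p = 0.35). Its levels were 7.76 and 7.80 in hiEGL1, 9.34 and 9.18 in hiEGL2 and 7.89 and 7.99 in PGC11.5, with hiEGL1 at the germ cell level and hiEGL2 above it. Members that were lower included the phosphofructokinase isoform Pfkp (3.31-fold lower, all probes lower), Pdk3 (2.15-fold lower) and the hexokinase Hk1, detected on 1 of 2 PGC11.5 arrays and no hiEGL array (difference -1.34 ± 0.12).

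In the respiratory chain the deepest falls with no probe called the other way were Uqcrh, Atp5pb and Atp5l. Uqcrh, a subunit of complex III, stood at 5.45 and 5.59 in hiEGL1, 4.99 and 5.85 in hiEGL2 and 12.11 and 12.17 in PGC11.5 and was at least 73.5-fold lower, with EG at 5.43 and ESC at 11.82. Atp5l and Atp5pb, subunits of ATP synthase, were at least 20.2-fold lower and at least 28.2-fold lower, with EG at 4.66 and 6.25. Uqcrh and Atp5l, undetected in EG, are read from dividing probes, and Atp5pb, which EG detected, is not. The EG level of Atp5pb still lies on the hiEGL side, with hiEGL at 5.21, ESC at 10.65 and PGC11.5 at 10.76. Without all dividing probes the list still held 12 higher and 37 lower members, with a median of -0.74. Against EG 27 of the 41 lower members were called lower as well, beside 33.4% of all genes tested. That comparison shares the hiEGL arrays on which the 41 were selected, so the share over all genes is no fair reference. Members that were higher included the complex I subunits Ndufb10 (5.49-fold higher) and Ndufb5 (4.24-fold higher) and the ATP synthase alpha subunit gene Atp5a1 (4.89-fold higher).

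Cell cycle genes were lower more often than all genes. Of 33 tested, 10 were higher and 17 lower (30.3% higher and 51.5% lower, against 45.1% and 32.1%), with a median of -0.49. Without dividing probes 10 were higher and 14 lower (median -0.19), and without PGC11.5 array 1 the median was -0.11. Cdkn2b, an inhibitor of CDK4 and CDK6 known as p15, stood at 9.05 and 9.16 in hiEGL1, 9.27 and 9.33 in hiEGL2 and 5.17 and 5.47 in PGC11.5 and was at least 10.2-fold higher. Cdkn1a, the p21 inhibitor, stood at 10.78 and 10.87 in hiEGL1, 10.82 and 10.74 in hiEGL2 and 7.16 and 7.86 in PGC11.5 and was 9.78-fold higher, and the D-type cyclin gene Ccnd1 was 14.1-fold higher, with 9.37-fold against PGC11.5 array 1 alone and 21.2-fold against array 2. Cdkn1a and Ccnd1 each had 1 further probe that did not differ beyond error. Birc5, or survivin, a gene of dividing cells, stood at 6.29 and 6.19 in hiEGL1, 7.06 and 7.10 in hiEGL2 and 10.47 and 10.23 in PGC11.5 and was 12.9-fold lower with all probes lower. On the same probe Birc5 stood at 8.54 in EG and 10.69 in ESC. The replication helicase genes Mcm3 and Mcm7 were at least 23.4-fold lower and at least 20.1-fold lower, the second on a dividing probe (EG 7.08 and 4.40). Myc was undetected on all 6 arrays.

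Genes that write, read and remove chromatin marks were lower more often than all genes. Of 17 genes of DNA methylation, demethylation and base excision 4 were higher and 10 lower (23.5% higher and 58.8% lower, median -0.98), and of 27 histone modifiers 7 were higher and 16 lower (25.9% higher and 59.3% lower, median -0.40). Over all genes 45.1% were higher and 32.1% lower. Without dividing probes the methylation list had 4 higher and 8 lower (median -0.50) and the histone modifiers 7 and 14 (median -0.37). Mbd3, a subunit of the NuRD repressor, stood at 6.75 and 7.02 in hiEGL1, 6.21 and 6.39 in hiEGL2 and 10.50 and 10.28 in PGC11.5 and was 13.9-fold lower, with EG at 6.197. The base excision genes Mbd4 and Tdg were at least 3.41-fold lower and at least 2.65-fold lower, on dividing probes (EG 4.68 and 5.06). Dnmt1, which maintains methylation, stood at 9.97 and 9.996 in hiEGL1, 9.61 and 9.57 in hiEGL2 and 9.57 and 9.86 in PGC11.5 (difference 0.07 ± 0.09, adjusted p = 0.475), and its call came in without PGC11.5 array 2 (0.21, adjusted p = 0.0219). Dnmt3b differed by 0.30 ± 0.08, lost with the line as a block (adjusted p = 0.542), and stood at 10.98 in EG. Dnmt3l, the cofactor of new methylation, stood at 4.46 and 4.50 in hiEGL1, 6.90 and 6.70 in hiEGL2 and 4.36 and 4.39 in PGC11.5, detected in hiEGL2 alone, and its sign turned without the quantile step. Uhrf1, the guide of Dnmt1, stood at 7.94 and 8.08 in hiEGL1, 9.25 and 9.17 in hiEGL2 and 8.42 and 8.79 in PGC11.5 and was not called (adjusted p = 0.963), with hiEGL1 below and hiEGL2 above the germ cell arrays. Gadd45b, a stress gene tied to demethylation, was 4.63-fold higher.

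Among the histone modifiers, Prmt5, the arginine methyltransferase that works with Blimp1 in germ cells, stood at 8.82 and 9.11 in hiEGL1, 8.08 and 8.28 in hiEGL2 and 10.07 and 10.01 in PGC11.5 and was 2.77-fold lower with all probes lower. Setdb1, an H3K9 methyltransferase that silences retroelements, was at least 6.85-fold lower, detected on 3 of 4 hiEGL arrays. Ezh2, the H3K27 methyltransferase, was at least 27.6-fold lower on a dividing probe (EG 4.84, ESC 10.44), and its second probe, dim in both groups, did not differ beyond error (0.22, adjusted p = 0.245). Cbx2, a Polycomb reader, was at least 3.86-fold lower on a dividing probe (EG 5.31), with 1 of 4 hiEGL arrays above detection. Eed, another Polycomb subunit, was 3.36-fold higher, the Prmt5 partner Wdr77 was 2.48-fold higher, and the H3K27 demethylase gene Kdm6b was at least 9.02-fold higher on the brighter of its probes, the other being uncalled.

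Imprinted genes were higher more often than all genes. Of 21 tested, 13 were higher and 5 lower (61.9% against 45.1%), with a median of 1.39. Cd81, a tetraspanin gene at an imprinted cluster, stood at 13.99 and 13.88 in hiEGL1, 13.92 and 13.93 in hiEGL2 and 8.96 and 8.82 in PGC11.5 and was 32.9-fold higher, with EG at 13.37. Dlk1, a Notch-family ligand gene, stood at 11.93 and 11.66 in hiEGL1, 12.45 and 12.49 in hiEGL2 and 9.35 and 6.995 in PGC11.5 on a dividing probe (EG 4.49) and was 15.6-fold higher, with 6.89-fold against PGC11.5 array 1 alone and 35.2-fold against array 2. Cdkn1c, the p57 cell cycle inhibitor, stood at 13.65 and 13.71 in hiEGL1, 14.09 and 14.08 in hiEGL2 and 11.86 and 9.85 in PGC11.5 and was 8.15-fold higher, with 4.07-fold against PGC11.5 array 1 alone and 16.3-fold against array 2. Igf2, a fetal growth factor, stood at 14.11 and 14.20 in hiEGL1, 14.17 and 14.18 in hiEGL2 and 13.07 and 9.98 in PGC11.5. PGC11.5 array 1 lay near the lines and array 2 far below for Igf2, whose difference of 2.64 ± 0.61 was lost with the line as a block (adjusted p = 0.089). Dlk1, Cdkn1c and Igf2 were all higher on the PGC11.5 array with more globin. Peg3, a zinc finger gene, and Gnas, the stimulatory G protein gene, were at least 4.01-fold lower and at least 3.24-fold lower on dividing probes (EG 4.33 and 4.59). Nnat was detected on PGC11.5 array 1 alone, at 4.42 and 4.51 in hiEGL1, 4.46 and 4.43 in hiEGL2 and 7.90 and 4.72 in PGC11.5, and its call was lost without that array (adjusted p = 0.107). H19 has no probe listed.

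Markers of fibroblasts and of several other somatic cells were higher more often than all genes. Fibroblast markers had 26 of 30 members higher and none lower (86.7% against 45.1%), with a median of 3.49. Their mean level lay between 9.42 and 9.68 on the hiEGL arrays and between 5.51 and 6.66 in PGC11.5, where 16 of 30 were undetected on both arrays. Timp3, a metalloprotease inhibitor, stood at 11.96 and 11.99 in hiEGL1, 12.42 and 12.45 in hiEGL2 and 4.80 and 4.57 in PGC11.5 and was at least 81.5-fold higher (adjusted p = 2.09e-12). Dcn, the matrix proteoglycan decorin, stood at 10.99 and 10.99 in hiEGL1, 11.22 and 11.28 in hiEGL2 and 4.74 and 4.90 in PGC11.5 on a dividing probe (EG 5.49) and was at least 38.4-fold higher, with both probes higher. Acta2, smooth muscle actin, stood at 13.49 and 13.25 in hiEGL1, 12.48 and 12.47 in hiEGL2 and 11.55 and 7.01 in PGC11.5, where PGC11.5 array 1 was near the lines, and its call was lost with the line as a block (adjusted p = 0.0873). Its other probes differed by 3.57, and by 0.05 and -0.56 without a call. With the mean of its probes the call was lost as well (1.68, adjusted p = 0.0632). Of the 26 higher members 22 were also higher than in EG, beside 28.4% of all genes tested. These members were selected on the same hiEGL arrays, so the share over all genes is no fair reference for them. Whether feeder fibroblasts were present in any culture is not given in the sources used here, and their part in the hiEGL values was not tested.

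The epithelial and mesenchymal list had 17 of 20 members higher and 1 lower (85% higher and 5% lower), and the primitive endoderm and trophectoderm list 16 of 25 higher and 2 lower (64% higher and 8% lower). The first had 11 higher and 1 lower both without the quantile step and with the line as a block. Over all genes 45.1% were higher and 32.1% lower. Pdgfra, a receptor of mesenchyme and primitive endoderm, stood at 11.37 and 11.47 in hiEGL1, 11.45 and 11.47 in hiEGL2 and 5.35 and 4.46 in PGC11.5, at 5.89 in EG and at 4.71 in ESC, and was at least 48.0-fold higher. Tgfbr2, the TGF-beta receptor gene, stood at 10.87 and 10.78 in hiEGL1, 11.79 and 11.75 in hiEGL2 and 4.93 and 4.32 in PGC11.5 and was at least 43.5-fold higher. The epithelial keratin gene Krt8 stood at 9.35 and 9.64 in hiEGL1, 9.05 and 8.95 in hiEGL2 and 5.404 and 5.76 in PGC11.5 and was at least 10.03-fold higher, with 1 of 2 PGC11.5 arrays above detection. Snai1, a repressor of epithelial genes, was at least 4.37-fold higher on a dividing probe (EG 5.46). Dab2 of the endoderm was at least 12.2-fold higher on its brighter probe, and its other probe, detected on all 6 arrays, differed by 1.11. The basement membrane gene Col4a2 was at least 12.8-fold higher. PGC11.5 stood at 8.26 and 5.18 for Col4a2, detected on array 1 alone, with 5.17-fold against PGC11.5 array 1 alone and 31.8-fold against array 2. Lamc1, another basement membrane gene, was 2.02-fold lower, and Tgfb1 was at least 1.38-fold lower. Gata3 was undetected on all 6 arrays, and its call was lost when either hiEGL1 array was left out.

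Of gonadal somatic markers 7 of 11 were higher and 2 lower (63.6% higher and 18.2% lower), 4 and 3 without the quantile step, and of 30 listed 11 were detected widely enough to be tested. Over all genes 45.1% were higher and 32.1% lower. Sox9, a gene of Sertoli cells and cartilage, was at least 4.65-fold higher, and the growth arrest gene Gadd45g was at least 44.7-fold higher, with all probes higher, 1 of 2 PGC11.5 arrays above detection and 20.7-fold against PGC11.5 array 1 alone and 96.4-fold against array 2. Cyp11a1, of steroid-making cells, was undetected on all 6 arrays. Blood, endothelial and macrophage markers had 10 of 14 members higher and none lower (71.4% higher and 0% lower), 6 and 0 with the line as a block and 5 and 1 without the quantile step. They were led by Lyz2 of macrophages (at least 4.48-fold higher on 1 of 2 probes), Cd34 (at least 3.39-fold higher) and Esam of endothelium (4.27-fold higher, with 2.11-fold against PGC11.5 array 1 alone and 8.63-fold against array 2). Globins were the exception, lower in all 4 tested members. Hba-a1 stood at 4.33 and 4.45 in hiEGL1, 4.64 and 4.49 in hiEGL2 and 14.51 and 9.83 in PGC11.5 and Hba-x at 4.32 and 4.29 in hiEGL1, 4.34 and 4.30 in hiEGL2 and 13.88 and 7.22 in PGC11.5, both undetected on every hiEGL array and on both EG arrays, and they were at least 74.9-fold lower and at least 24.4-fold lower. Both bounds hang on the array, at 380.3-fold against PGC11.5 array 1 alone and 14.8-fold against array 2 for Hba-a1 and 246-fold against PGC11.5 array 1 alone and 2.43-fold against array 2 for Hba-x.

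**Figure D5:**
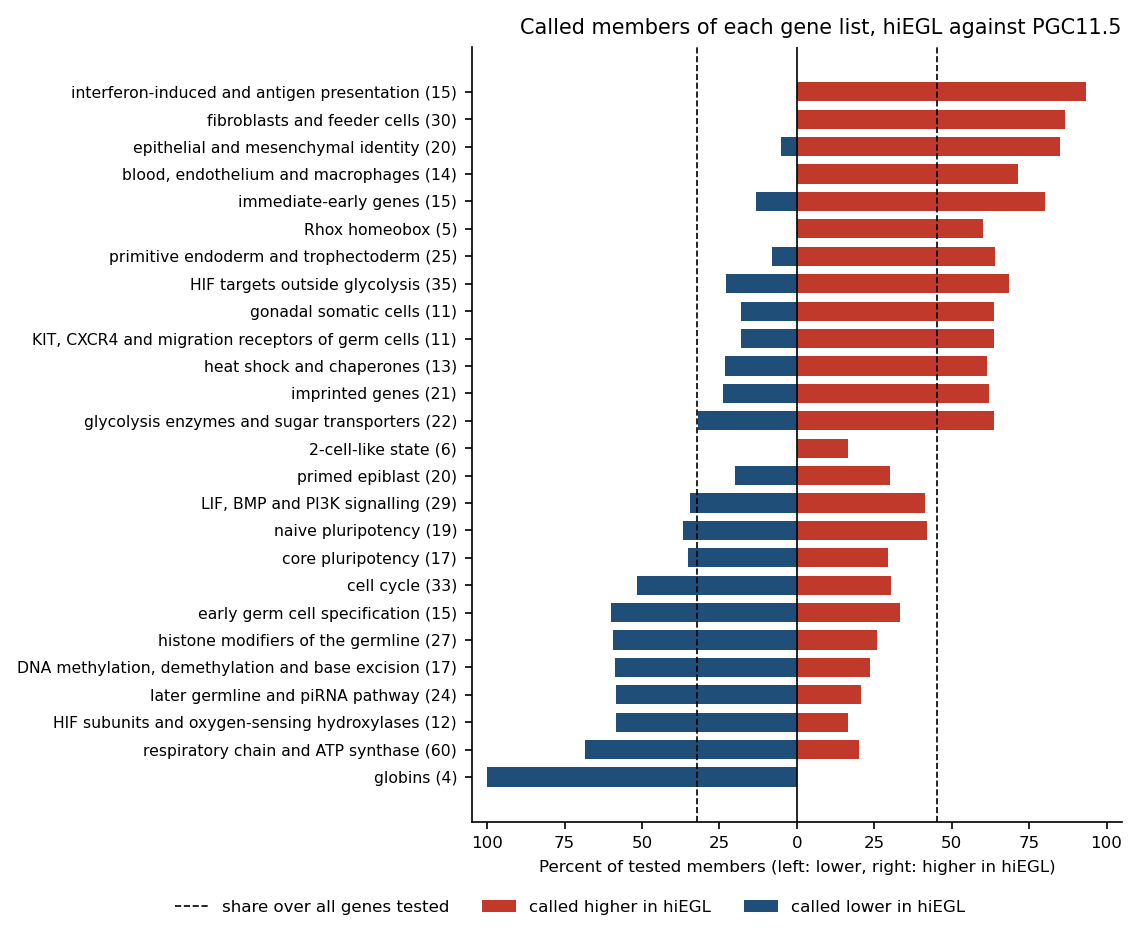
Percent of the tested members of each of the 26 gene lists (number tested in brackets) called higher in hiEGL (right) or lower (left) than in PGC11.5, with the shares over all 9054 genes as dashed lines at 45.1% and 32.1%. Interferon, fibroblast and epithelial and mesenchymal lists reach furthest right, and globins and respiratory chain genes furthest left.

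Of 11 receptors for germ cell migration 7 were higher and 2 lower (63.6% higher and 18.2% lower, beside 45.1% and 32.1% over all genes). The counts were 5 and 3 with the mean of the probes and 6 and 4 without the quantile step. Cxcr4, the chemokine receptor that guides germ cells to the gonad, stood at 4.62 and 4.96 in hiEGL1, 4.78 and 4.60 in hiEGL2 and 6.05 and 7.80 in PGC11.5, above detection on PGC11.5 array 2 alone, and was at least 1.98-fold lower, a bound that rests on that array. The adhesion gene Cd9 was 2.50-fold lower, and the receptor genes Ror2 and Pdgfrb and the adaptor gene Grb7 were 4.90-fold higher, at least 1.75-fold higher and 3.37-fold higher. LIF, BMP and PI3K signalling had 12 of 29 members higher and 10 lower (41.4% higher and 34.5% lower), shares near those over all genes (45.1% and 32.1%), and turned to 9 and 13 without the quantile step. Il6st, the gp130 receptor of LIF, was at least 2.35-fold higher, with 1 of 2 PGC11.5 arrays above detection, and its call was lost without the quantile step (0.61, adjusted p = 0.0553). Etv4 and Etv5, transcription factors downstream of FGF, were at least 9.30-fold lower and 3.85-fold lower, the first detected on 2 of 4 hiEGL arrays, and Foxo1, a PI3K-regulated factor, was at least 7.40-fold lower, detected on 1 of 4 hiEGL arrays. Lifr was detected on 1 PGC11.5 array and no hiEGL array, and its difference of -0.68 ± 0.19 was lost with the line as a block (adjusted p = 0.132).

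Fewer genes were called between the lines than between either line and PGC11.5. Between hiEGL2 and hiEGL1 2713 genes were called (30%), 659 of them at least 2-fold apart. Genes called against PGC11.5 in both lines numbered 5942 in the same direction, 3460 higher and 2482 lower, and 93 in opposite directions, and these counts share the PGC11.5 arrays. Tex19.1 was lower in hiEGL2 than in hiEGL1 (log2 difference -1.93, adjusted p = 2.05e-06), as was Nanos3 (-2.02, adjusted p = 3.9e-05). Lox was higher in hiEGL2 by 1.98 (adjusted p = 0.00342), Car9 by 1.31 and Pdk1 by 1.48.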

How the data were processed

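Per the labels, total RNA (300 ng) from C57BL cells was amplified and hybridised to single-colour Illumina bead arrays, with 18 h and 12 h transcription steps described for every sample, and the sources used here do not say which array received which. Per the file headers, each array has a signal column and a detection p-value column in the deposited table, and the deposited signals range as unlogged, non-normalized intensities. A second deposited table holds normalized log2 values, with a median of 3.019 on every array and a rank correlation of 1 with the signals. Its centring is not given in the sources used here. The submitters' processing notes name BeadStudio 3.2, lumi and RMA, without order or settings.

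Of 25697 probes, 23978 have 1 gene listed and 1719 none, which were left out. Background was corrected from the detection p-values with an offset of 16, arrays were quantile-normalised and logged (neqc, limma 3.58.1, R 4.3.3). Each gene was represented by its brightest probe on average and tested when that probe was detected (p under 0.01) on at least 2 arrays. Group means of all 14 arrays were fitted with a variance trend (6 residual degrees of freedom, 9.76 after moderation), and p-values were adjusted over all 9054 genes by Benjamini and Hochberg. The same fit was made for 12404 single probes. SE is the moderated standard error and SD the spread between arrays. Where arrays of 1 of the groups did not detect a gene, the fold is a lower bound: the bright group's mean against, per array of the dim group, the higher of its own value and the lowest signal of a detected probe. The procedure was tested on simulated data. Figures were drawn with Python 3.11.15 and matplotlib 3.10.9.

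The comparison, the 26 gene lists and the named genes were chosen with earlier results of these data known. Named genes were the 12 largest rises and falls among genes with concordant probes and no overlap of arrays (no Riken, Gm, clone, locus or predicted symbols), 54 fixed genes of which 45 were tested (Kit, Tet1 and H19 are among those with no probe listed), and up to 3 called changes per direction of each list with no probe called the other way. Lists share genes. Promoter windows are RefSeq's, build GRCm38.p6. Alternatives covered the deposited log2 values, background correction left out, median scaling, both stricter and no detection filters, probe means, removal of dividing probes, a random block for the line, a model of the 6 compared arrays, blocks by replicate number, a threshold of 2-fold, and removal of single arrays. Same-numbered arrays did not deviate together, so replicate numbers were not taken to pair samples. No column of per-sample values was left unused.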

Additional observations from a re-analysis of the deposited data

Results flagged for a closer look

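Both lines carry the same contrast with PGC11.5, and a test of hiEGL2 against hiEGL1 shows where that contrast differed between them, since the germ cell arrays cancel. Of 162 genes named in the text, 55 differed between the lines by limma's adjusted p, beside 30% of all genes. The values are log2 differences, hiEGL2 minus hiEGL1, 33 of them positive. Higher in hiEGL2 by the widest margins were Dnmt3l (2.32), Lox (1.98), Junb (1.81), Pdk1 (1.48), Ptx3 (1.43), Egr2 (1.37), Car9 (1.31), Klf4 (1.23), Ldha (1.23), Socs3 (1.22), Uhrf1 (1.20), Eno2 (1.08) and Etv4 (1.05). Smaller differences in that direction were found for Dppa3 (1.03), Tgfbr2 (0.95), Klf2 (0.85), Vegfa (0.85), Birc5 (0.84), Ivns1abp (0.81), Hk2 (0.80), Lamc1 (0.77), Igfbp3 (0.73), Dab2 (0.72), Cd9 (0.71), Gadd45b (0.69) and Kdm6b (0.62). The remaining genes higher in hiEGL2 were Ndrg1 (0.61), Pgm1 (0.59), Lhfp (0.52), Timp3 (0.46), Nanos2 (0.45), Eif1a (0.43) and Slc2a1 (0.32). Lower in hiEGL2 were Nanos3 (-2.02), Tex19.1 (-1.93), Tgfb1 (-0.95), Grb7 (-0.88), Ccnd1 (-0.82), Sumo3 (-0.81), Pou5f1 (-0.80), Prmt5 (-0.78), Dppa5a (-0.72), Dppa4 (-0.70), Dnmt3b (-0.67), Rhox6 (-0.67) and Lyz2 (-0.59). Smaller differences in that direction were found for Mbd3 (-0.59), Pdk3 (-0.57), Psmb9 (-0.56), Krt8 (-0.49), Tdgf1 (-0.41), Dnmt1 (-0.39), Tfap2c (-0.31), Lefty1 (-0.28) and Dnajb1 (-0.26). Uhrf1 is the gene called in opposite directions against PGC11.5 in the 2 lines, lower in hiEGL1 and higher in hiEGL2. Among the 55, Dnmt3l, Etv4, Tex19.1 and Nanos3 were detected in 1 line and not in the other, and Sumo3, Ivns1abp, Igfbp3 and Tgfb1 in neither, so those values rest on background on at least 1 side.

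Among the 4 hiEGL arrays of each named gene, 1 array lay outside Dixon's 95% range for 3 genes, Atp5pb on hiEGL2 array 1 (5.68), Mbd4 on hiEGL2 array 2 (4.86) and Peg3 on hiEGL1 array 2 (4.65), all log2 intensities of genes undetected in hiEGL. Chance alone gives such a result in about 1 of 20 groups, and 162 groups were compared.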

How the results depend on the processing

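The count of called genes in hiEGL against PGC11.5, 6985, lay between 4762 (at least 2-fold) and 8385 (no filter on detection) under all alternatives, and between 6699 and 7423 when 1 array was left out. For hiEGL1 against PGC11.5 leaving out 1 array gave 6170 to 7320 calls, for hiEGL2 6200 to 7276, and by probe 9070 to 10007. Scaling arrays to the same median in place of the quantile step gave 6471 calls, 2456 higher and 4015 lower (38% higher against 58.4%). It turned the log2 difference of Dnmt3l (-0.32), Epas1 (-0.86), Nanos2 (-0.29), Rhox12 (-0.24), Rhox9 (-0.19), Sox17 (-0.32), Sox2 (-0.78), Stra8 (-1.01) and Taf7l (-0.50). The calls of Dnmt3b (0.15), Il6st (0.61), Pdgfrb (0.51) and Tdgf1 (0.29) were lost under that scaling, and that of Myc (-1.09) came in. The mean of a gene's probes turned Sox2 (-2.33) and Tfap2c (-0.53), and leaving out PGC11.5 replicate 1 turned Sox2 (-0.49), which was at 0.52 without replicate 2. With the line as a random block, at a correlation of 0.641, 5099 genes were called in hiEGL against PGC11.5 and 2895, in place of 5598, in hiEGL against EG. At a 2-fold threshold hiEGL against EG had 2766 calls and hiEGL2 against hiEGL1 659 of 2713. The cause of these changes was not tested. Of 163 named genes 130 kept call and direction under each alternative that could be computed for them, and the majority of calls turned in 5 of 26 lists under at least 1. With the replicate number as a block 6965 genes were called. The numbers do not pair the arrays, as same-numbered arrays of hiEGL1 and PGC11.5 deviated together at 0.01 and those of hiEGL1 and hiEGL2 at -0.027. The random block was not run where the line is itself the contrast, and the mean of probes was not run by probe. The small number of arrays limits the precision, and a gene undetected in 1 group has a fold that is only a bound.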

Other observations

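Of 15 immediate-early genes 12 were higher in the hypoxia-derived lines and 2 lower (80% higher and 13.3% lower, against 45.1% and 32.1% over all genes), with a median log2 difference of 2.82. Their mean level lay between 8.75 and 9.74 on the hiEGL arrays and was 7.20 and 5.96 on PGC11.5 arrays 1 and 2. Ier3, an early response gene that limits cell death, stood at 13.92 and 13.80 in hiEGL1, 14.21 and 14.27 in hiEGL2 and 7.75 and 6.68 in PGC11.5 and was 114-fold higher. Egr1, a zinc finger factor induced by serum, stood at 13.89 and 13.77 in hiEGL1, 14.27 and 14.23 in hiEGL2 and 10.37 and 6.94 in PGC11.5, with PGC11.5 array 1 well above array 2, and was 41.8-fold higher, with 12.7-fold against PGC11.5 array 1 alone and 137-fold against array 2. Egr2 was at least 12.6-fold higher and Junb, on a dividing probe (EG 5.54), 3.73-fold higher. Jund, the AP-1 member of resting cells, was at least 1.97-fold lower on a dividing probe (EG 4.88), and the call of Klf6 (difference -0.76 ± 0.22) was lost without PGC11.5 array 1 (adjusted p = 0.062). The time from culture or embryo to lysis is not given in the sources used here, and its part in these values was not tested.

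Of 13 heat shock genes 8 were higher and 3 lower (61.5% higher and 23.1% lower, beside 45.1% and 32.1% over all genes). The counts were 5 and 2 with the line as a block and 6 and 6 with the mean of the probes. Against EG, 1 of the 8 higher members was also called higher and 2 of the 3 lower members also lower. The small chaperone gene Hspb1 stood at 9.60 and 9.54 in hiEGL1, 9.70 and 9.002 in hiEGL2 and 5.74 and 5.62 in PGC11.5 and was at least 12.2-fold higher, with EG at 11.71. Hsph1 and Hspa4 were 8.30-fold higher and 3.18-fold higher, while the mitochondrial chaperonin gene Hspe1 was 2.53-fold lower and Hsp90aa1 1.96-fold lower. Dnajb1 differed by -0.40 ± 0.07 and lost its call with the line as a block (adjusted p = 0.108).

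Genes of antigen presentation and the interferon response had 14 of 15 members higher and none lower (93.3% higher and 0% lower, beside 45.1% and 32.1% over all genes). Tap2, a peptide transporter gene, stood at 9.46 and 9.53 in hiEGL1, 10.23 and 10.10 in hiEGL2 and 5.44 and 4.32 in PGC11.5 and was at least 15.7-fold higher, and the immunoproteasome gene Psmb9 was at least 5.43-fold higher. Without the quantile step this list had 7 higher and 1 lower. Of the 2-cell-like list 1 of 6 members was higher, the translation factor gene Eif1a (1.57-fold higher), and the other 5 were undetected in both groups. Without the quantile step that list had 1 higher and 6 lower, more members being tested there.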
